A study of Mus musculus with 6 samples.

Results

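Heat shock proteins and their DNAJ partners were followed across the transition of mouse embryonic stem cells to epiblast-like cells. The members were all genes of the deposited table whose symbol starts with Hsp90, with Hspa, Hspb, Hspd, Hspe or Hsph and a digit, or with Dnaja, Dnajb or Dnajc and a digit, leaving out symbols with a -ps suffix. This gave 72 of 78298 genes, and 15 rows with the suffix were left out. Symbols alone chose the members, so expression values played no part in the rule. The 2 groups were wild-type epiblast-like cells (EpiLCs, 3 libraries), a cultured state that resembles the epiblast after implantation, and wild-type embryonic stem cells (ESCs, 3 libraries), the cultured counterpart of the naive epiblast. Both came from 1 line, named BVSC clone H18 in the labels, so all values describe a single clone. The labels give no culture medium, treatment, time point or animal age for either group. All 6 column headings carry the tag 0uM, which the labels do not explain, so whether the libraries belong to a dose series is not known here. The titles mark the libraries as biological replicates but do not tell which cultures they came from. P-values therefore measure only the spread between these libraries, which may be technical.

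RNA was measured by strand-selected poly(A) sequencing, and the table gives TPM, a transcript's share of a library per unit of length, scaled to 1000000 per library. TPM keeps no read depth, so no counting error can be given. Each library had 13610 to 13983 genes at 1 TPM or more. Group labels were checked with markers: 6 naive markers (Klf4, Tfcp2l1, Esrrb, Tbx3, Nr5a2 and Prdm14) summed to 26.3 to 31.5 TPM in EpiLCs and to 758 to 830 TPM in ESCs, and 6 EpiLC markers (Dnmt3a, Dnmt3b, Dnmt3l, Fgf5, Otx2 and Pou3f1) summed to 939 to 1213 TPM in EpiLCs and to 38.6 to 40.7 TPM in ESCs. Some markers of other cell types also differed. The 5 neural markers, all with a mean of at least 1 TPM, summed to 50.6 to 61.7 TPM in EpiLCs and to 12.8 to 15.6 TPM in ESCs. The 6 fibroblast markers summed to 12.6 to 15.8 TPM in EpiLCs and to 3.18 to 5.69 TPM in ESCs, with 2 of 6 at a mean of at least 1 TPM and Col3a1 and Postn under 0.1 TPM. The 5 germ cell markers summed to 70.9 to 104.5 TPM in EpiLCs and to 104.4 to 120.5 TPM in ESCs, ranges that overlapped slightly. The 6 primitive endoderm markers summed to 1.20 to 2.43 TPM in EpiLCs and to 5.21 to 6.41 TPM in ESCs. The mitochondrially encoded share was 3.21% to 3.74% in EpiLCs and 2.47% to 2.95% in ESCs. The part of these differences in the results below was not tested. In bulk RNA, fewer cells that express a gene and less RNA per cell cannot be told apart.

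Chaperones keep proteins folded. A J-domain protein of the DNAJ family hands an unfolded client to an HSP70 and makes it hydrolyse ATP, a nucleotide exchange factor such as an HSP110 opens HSP70 again, and clients such as kinases and steroid receptors pass on to HSP90. HSP70 and HSP90 each have separate family members in the cytosol, the endoplasmic reticulum (ER) and the mitochondria, where HSP60 and HSP10 also form a folding chamber. Small heat shock proteins hold aggregating proteins without ATP. Heat shock factor HSF1 induces part of the family through heat shock elements in promoters, and ER chaperones are induced by the unfolded protein response through ER stress elements. Pluripotent cells are known for a high content of cytosolic chaperones.

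Promoter letters of these genes are shown first, because members that share such an element can be set beside each other in the results. RefSeq start sites on GRCm38.p6 were matched by symbol for 57 of the 72 members, with 74 start sites in all. Hsp90aa1, Hsp90ab1, Hspa8 and Hspa9 are among the members without a match, so their promoters were not searched. The window was the 250 bases before each start. The files' own build is GRCm39, so these coordinates belong to the reference only. The ER stress element, searched on both strands as CCAAT and CCACG with 9 bases of any kind between them, was present in 3 of the 74 member windows (4.05%) and in 37 of 32851 windows in the whole table (0.113%). Those 3 were the promoters of Hspa5 (chr2:34771840-34772089, plus strand), Hsp90b1 (chr10:86705445-86705694, minus strand), which holds it on both strands, and Dnajc3 (chr14:118937682-118937931, plus strand). The element began 65 bases before the start in Hspa5, 212 and 107 bases before it in Hsp90b1 and 105 bases before it in Dnajc3. Capitals mark the element.

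Hspa5: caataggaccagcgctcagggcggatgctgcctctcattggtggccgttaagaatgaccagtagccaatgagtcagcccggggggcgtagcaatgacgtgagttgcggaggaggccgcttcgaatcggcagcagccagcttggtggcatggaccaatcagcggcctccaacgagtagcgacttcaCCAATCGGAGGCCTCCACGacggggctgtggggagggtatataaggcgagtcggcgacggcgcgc
Hsp90b1: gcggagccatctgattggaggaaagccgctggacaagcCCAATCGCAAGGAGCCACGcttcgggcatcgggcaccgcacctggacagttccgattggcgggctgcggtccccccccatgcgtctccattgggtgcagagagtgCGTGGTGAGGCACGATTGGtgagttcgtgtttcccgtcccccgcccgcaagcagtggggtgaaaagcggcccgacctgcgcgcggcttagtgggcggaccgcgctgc
Dnajc3: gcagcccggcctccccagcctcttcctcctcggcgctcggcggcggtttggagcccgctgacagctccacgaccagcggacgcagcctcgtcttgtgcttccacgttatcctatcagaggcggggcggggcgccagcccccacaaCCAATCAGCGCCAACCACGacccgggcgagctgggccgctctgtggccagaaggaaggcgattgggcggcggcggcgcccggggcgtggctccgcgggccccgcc

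A heat shock element is built of inverted GAA units. A pair of units (GAANNTTC or TTCNNGAA, each its own reverse complement) was found in 16 of 74 member windows (21.6%) and in 12.8% of all windows. The triple, a run of 3 units in alternating direction at the same spacing and thus a chain of overlapping pairs, was found in 4 of 74 member windows (5.41%) and in 0.466% of all windows. The triples belonged to Dnajb6, with a pair of start sites, and to Hspd1 and Hspe1, whose start sites lie 215 bases apart on opposite strands and share 1 stretch of promoter. This stretch is shown for Hspe1 (chr1:55087898-55088147, plus strand), where 2 overlapping triples begin 89 and 84 bases before the start. Also shown are Hspb1 (chr5:135887669-135887918, plus strand), Dnaja1 (chr4:40722218-40722467, plus strand, the first of 3 start sites) and Hspa1b (chr17:34959239-34959488, minus strand), which hold pairs, and of which Dnaja1 and Hspa1b rose and Hspb1 fell. Capitals mark the heat shock units.

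Hspe1: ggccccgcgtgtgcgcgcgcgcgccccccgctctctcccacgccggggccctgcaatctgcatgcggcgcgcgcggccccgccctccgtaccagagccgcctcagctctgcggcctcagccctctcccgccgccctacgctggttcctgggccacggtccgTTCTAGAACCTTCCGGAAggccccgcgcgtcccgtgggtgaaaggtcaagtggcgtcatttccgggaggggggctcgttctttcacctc
Hspb1: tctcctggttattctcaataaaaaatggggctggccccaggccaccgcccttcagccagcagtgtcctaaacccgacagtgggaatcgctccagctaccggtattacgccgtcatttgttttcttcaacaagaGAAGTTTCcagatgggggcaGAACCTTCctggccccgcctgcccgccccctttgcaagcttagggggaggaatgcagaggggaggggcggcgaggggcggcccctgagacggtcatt
Dnaja1: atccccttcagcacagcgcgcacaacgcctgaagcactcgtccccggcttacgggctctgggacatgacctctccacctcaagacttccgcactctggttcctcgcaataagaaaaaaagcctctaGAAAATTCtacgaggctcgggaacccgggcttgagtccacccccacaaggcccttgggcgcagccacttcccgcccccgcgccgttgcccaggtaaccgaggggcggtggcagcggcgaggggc
Hspa1b: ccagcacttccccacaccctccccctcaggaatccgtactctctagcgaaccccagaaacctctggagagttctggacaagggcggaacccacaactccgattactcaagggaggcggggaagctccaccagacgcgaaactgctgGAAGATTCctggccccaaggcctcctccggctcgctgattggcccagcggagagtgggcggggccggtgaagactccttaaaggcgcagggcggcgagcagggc

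These matches describe letters and are no evidence of binding, and a window without a match says nothing about a factor.

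Members spanned the whole range of expression. In EpiLCs 4 members had a mean of at least 1000 TPM, 15 lay between 100 and 1000, 19 between 10 and 100, 25 between 1 and 10, and 9 were under 1 TPM. In ESCs the corresponding numbers were 3, 17, 21, 21 and 10. The most abundant member in both states was Hsp90aa1, followed by Hsp90ab1 and Hspa8. All 72 members together took 20681, 21067 and 21710 TPM in the EpiLC libraries, against 17496, 16735 and 18491 TPM in the ESC libraries. That is a mean of 2.12% of all TPM in EpiLCs and 1.76% in ESCs, with no overlap between groups. Hspa8 alone made up 53.4% of the summed difference of 3578 TPM, Hsp90ab1 16.9%, Hspd1 14.2% and Hspa5 9.10%, while Hspb1 and Hsp90aa1 entered with -4.26% and -3.45%.

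**Figure D1:**
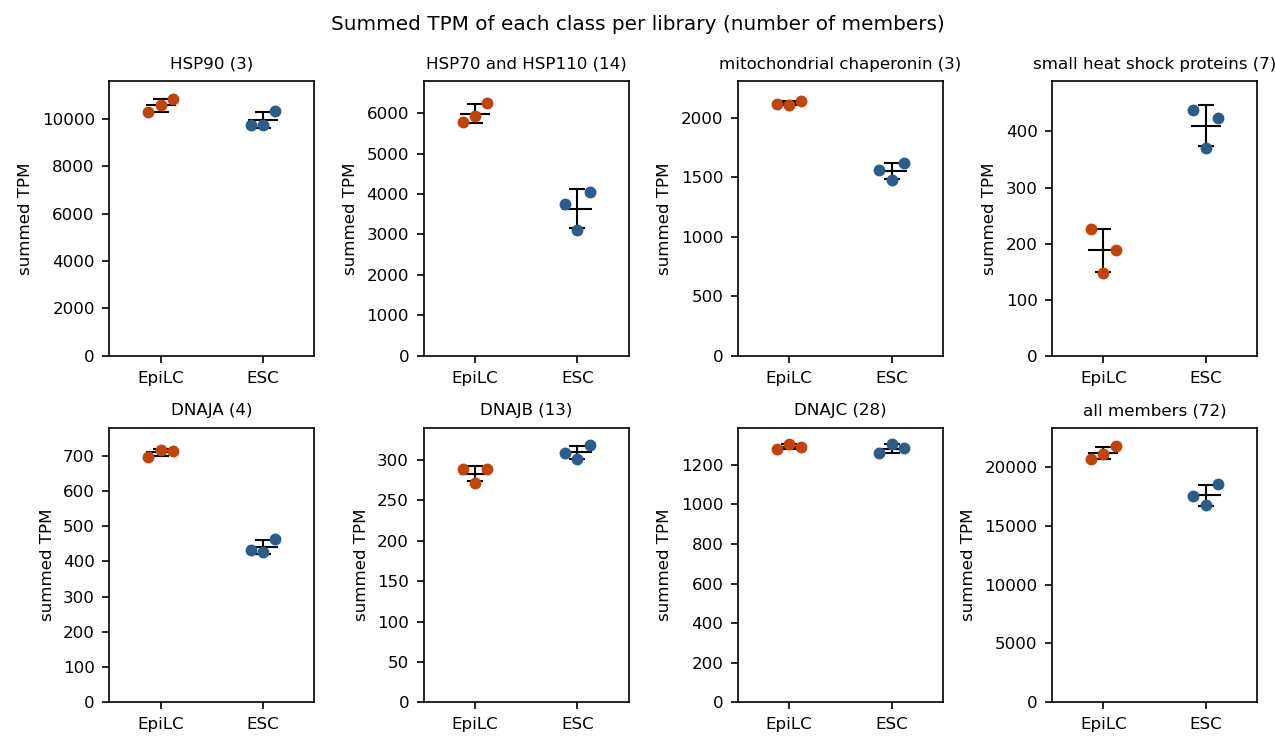
Summed TPM (vertical axis, from 0) of the members of each class in each library, with 1 point per library, a horizontal line for the mean and bars for the SD (n = 3). HSP70 and HSP110 genes summed to 5979 ± 236 TPM in EpiLCs and 3634 ± 482 TPM in ESCs, and small heat shock proteins to 188 ± 39.1 TPM in EpiLCs and 410.4 ± 35.9 TPM in ESCs.

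A gene was tested where its mean over the 6 libraries was at least 1 TPM, and it was called at an adjusted p below 0.05 (limma on log2(TPM + 1), Benjamini-Hochberg over all 14036 tested genes). Log2 fold changes are EpiLC over ESC on that scale, and the added 1 TPM shrinks the changes of genes at low levels. Of the 62 members tested, 27 rose and 15 fell in EpiLCs, and 20 were not called. Over all tested genes 36.1% were higher and 30.9% lower, and the member shares were 43.5% and 24.2%. Calls in either direction covered 67.7% of members and 66.9% of all genes, so the family as a whole was near the background. Changes of at least 1 on the log2 scale were called upward for 4 members (6.45%, against 9.87% of all genes) and downward for 5 (8.06%, against 9.40% of all genes). The groups did not overlap for 44 members (71.0%), against 71.5% of all genes. The median log2 fold change was 0.07 over the members and 0.04 over all tested genes. The classes differed in their counts: 9 of 12 tested HSP70 and HSP110 genes rose, none of 4 tested small heat shock proteins rose and 2 fell, and the 27 tested DNAJC genes split into 9 higher, 9 lower and 9 not called.

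**Figure D2:**
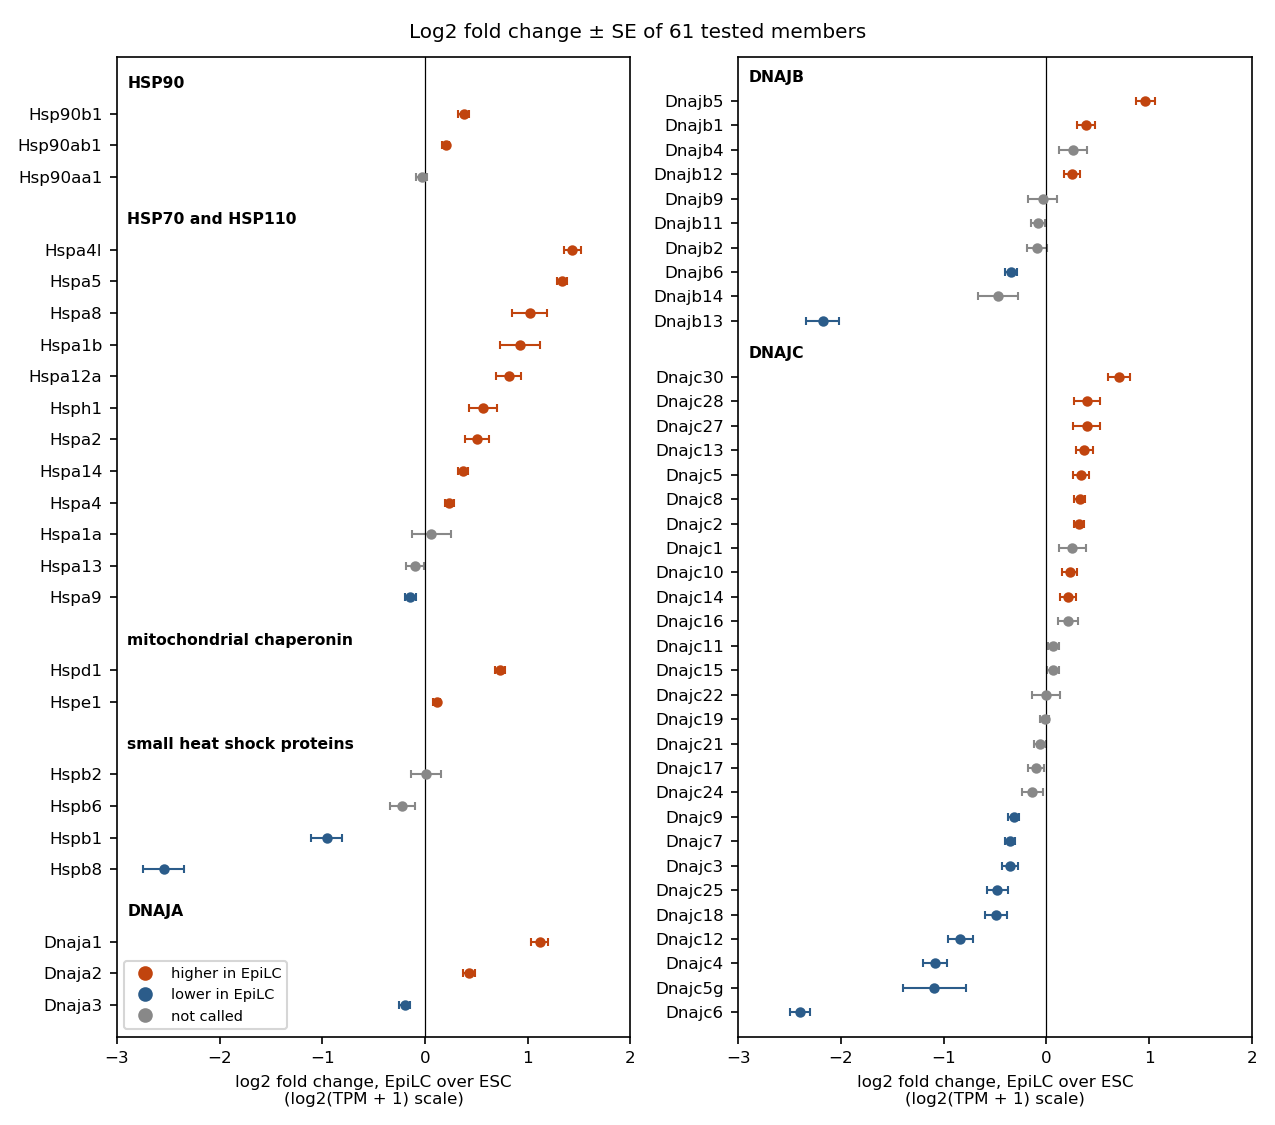
Log2 fold change (horizontal axis, EpiLC over ESC, log2(TPM + 1) scale) of 61 of the 62 tested members, grouped by class and ordered within it, with bars for the SE. Values run between -2.54 for Hspb8 and 1.44 for Hspa4l, and points are coloured by the call.

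Among HSP90 genes, the ER and the constitutive cytosolic form rose and the stress-inducible cytosolic form was not called. Hsp90aa1, the inducible form, had 5018, 5275 and 5567 TPM in EpiLCs and 5167, 5381 and 5683 TPM in ESCs. Its groups overlapped throughout (log2 fold change -0.03 with an SE of 0.05, adjusted p = 0.597 by limma), and its sign turned in 3 of 15 alternatives. Hsp90ab1, the constitutive form, had 4608, 4633 and 4648 TPM in EpiLCs, against 4052, 3891 and 4128 TPM in ESCs. Every EpiLC value lay above every ESC value, and the change was small (log2 fold change 0.20 with an SE of 0.04, adjusted p = 0.0015 by limma). On the log2 scale it was 0.15 under median-of-ratios scaling and 0.30 under quantile normalization. Hsp90b1, which encodes the ER form Grp94, had 667, 688 and 631 TPM in EpiLCs, against 515, 480 and 535 TPM in ESCs (log2 fold change 0.38 with an SE of 0.05, adjusted p = 4.6e-04 by limma). The Hsp90aa1 to Hsp90ab1 ratio within a library was 1.09, 1.14 and 1.20 in EpiLCs, against 1.28, 1.38 and 1.38 in ESCs. For 6 such ratios an exact two-sided permutation test of 3 against 3 libraries was run, whose smallest possible p is 0.1. This ratio reached it (exact permutation p = 0.1, adjusted over the 6 ratios 0.12), so no ratio could pass 0.05.

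Of the 12 tested HSP70 and HSP110 genes 9 rose and 1 fell (75.0% and 8.33%, against 36.1% and 30.9% of all genes). Hspa8, the constitutive cytosolic HSP70 (Hsc70), had 3697, 3751 and 4091 TPM in EpiLCs, against 2108, 1386 and 2314 TPM in ESCs. All EpiLC libraries were above all ESC libraries, and ESC replicate 2 was the lowest (log2 fold change 1.02 with an SE of 0.17, adjusted p = 0.0010 by limma). Without that library the log2 fold change was 0.80 (adjusted p = 5.8e-05). Hspa5, which encodes the ER chaperone BiP, had 532, 543 and 542 TPM in EpiLCs, against 210.1, 205 and 225 TPM in ESCs. Its libraries were tight within each group and far apart between them (log2 fold change 1.33 with an SE of 0.05, adjusted p = 4.7e-07 by limma). The Hspa5 to Hspa8 ratio was 0.144, 0.145 and 0.133 in EpiLCs and 0.0997, 0.148 and 0.0972 in ESCs, where replicate 2 was at the EpiLC level (exact permutation p = 0.4, adjusted 0.4). Without ESC replicate 2 the log2 difference of this ratio was 0.51, without ESC replicate 3 it was 0.21, and with all libraries 0.32. Hspa9, the mitochondrial HSP70 (mortalin), went the other way, with 688, 727 and 717 TPM in EpiLCs, against 747, 846 and 768 TPM in ESCs. The difference was at the threshold (log2 fold change -0.14 with an SE of 0.05, adjusted p = 0.045 by limma) and only 7 of 15 alternatives kept it. It was lost when ESC replicate 2, ESC replicate 3 or any EpiLC library was left out, with a log2 fold change of -0.09 without ESC replicate 2 and of -0.12 to -0.16 without the others, and the adjusted p ranged between 0.015 and 0.13.

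**Figure D3:**
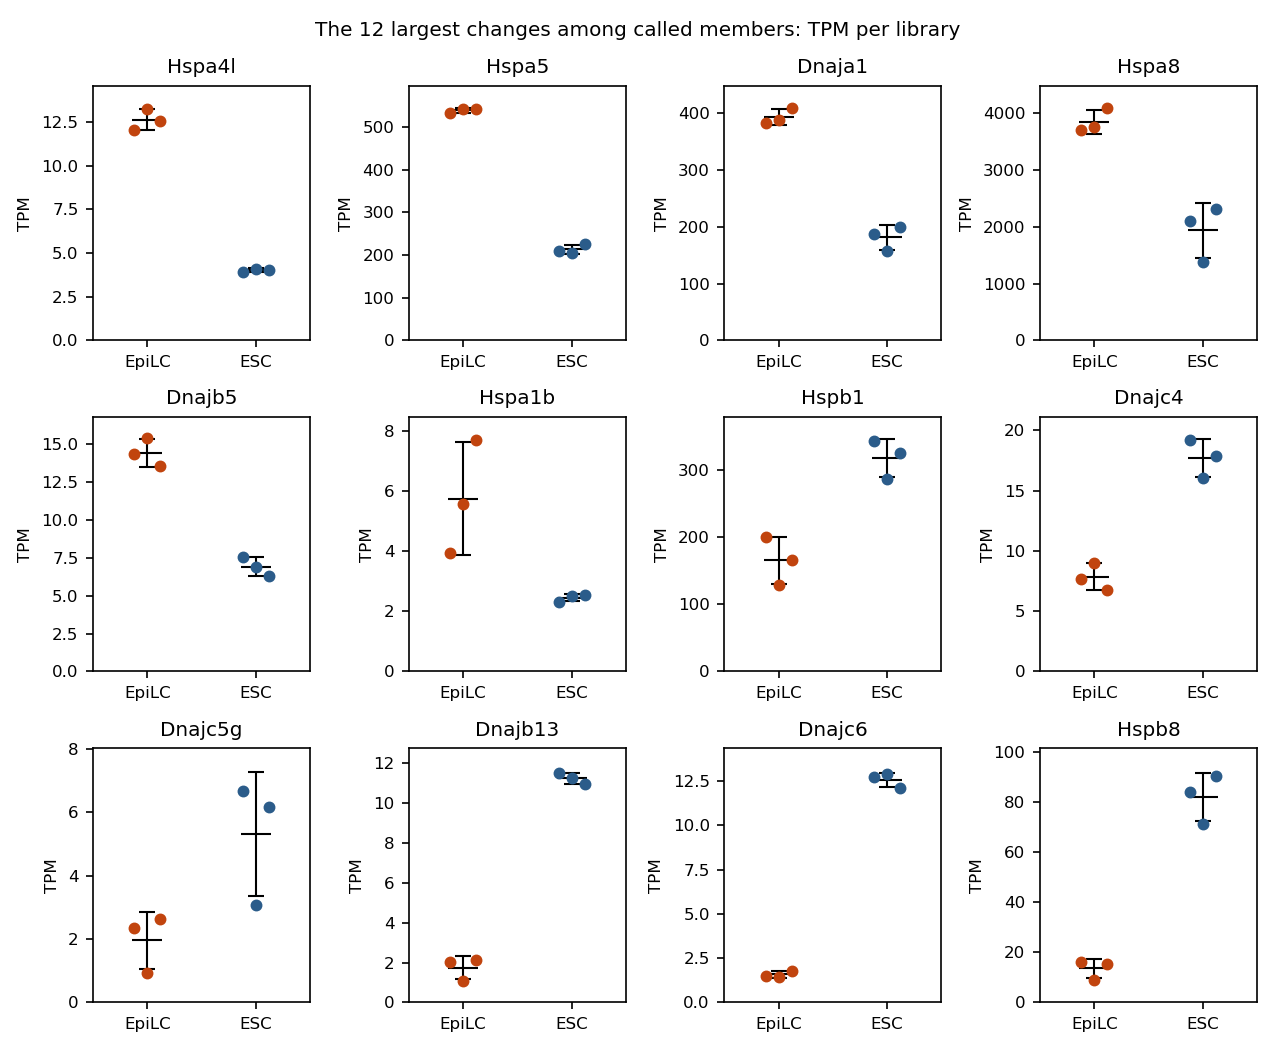
TPM (vertical axes, from 0) in each library of the 12 called members with the largest absolute log2 fold change, with EpiLC on the left and ESC on the right, a line for the mean and bars for the SD (n = 3 each). Hspa4l, Hspa5, Dnaja1, Hspa8, Dnajb5 and Hspa1b lie higher in EpiLCs, and Hspb1, Dnajc4, Dnajc5g, Dnajb13, Dnajc6 and Hspb8 lie lower, with no overlap in any of the 12.

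The HSP110 group, which act as nucleotide exchange factors of HSP70, rose for all 3 members. Hspa4l had 12.1, 13.3 and 12.6 TPM in EpiLCs, against 3.93, 4.12 and 4.06 TPM in ESCs. Its log2 fold change was the highest of the tested members on the log2(TPM + 1) scale (1.44 with an SE of 0.09, adjusted p = 4.9e-06 by limma). Its more abundant paralog Hspa4 had 495, 532 and 503 TPM in EpiLCs, against 428, 420.4 and 449 TPM in ESCs, a small change without overlap (log2 fold change 0.24, adjusted p = 0.0022 by limma). Hsph1, a heat-inducible HSP110, had 148, 159 and 173 TPM in EpiLCs, against 116, 85.5 and 125 TPM in ESCs. Again ESC replicate 2 was lowest (log2 fold change 0.57 with an SE of 0.13, adjusted p = 0.0064 by limma), and without it the log2 fold change was 0.40. The Hsph1 to Hspa8 ratio was lower in EpiLCs, at 0.0416 ± 0.0013 against 0.0570 ± 0.0041 in ESCs (SD, n = 3 each, exact permutation p = 0.1, adjusted 0.12).

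The stress-induced HSP70 genes were at low levels. Hspa1b had 3.96, 5.58 and 7.72 TPM in EpiLCs, against 2.32, 2.51 and 2.55 TPM in ESCs. EpiLC values were spread but all above the ESC values (log2 fold change 0.93 with an SE of 0.20, adjusted p = 0.0035 by limma). Hspa1a had 1.25, 0.723 and 1.88 TPM in EpiLCs and 1.07, 1.17 and 1.18 TPM in ESCs, and was not called (limma adjusted p = 0.786). The longest reading frames of this pair are 99.4% identical and their 250-base promoter windows 98.8% identical, so how reads were split between them is uncertain and single values should be read with that limit. Hspa2, best known from male germ cells, had 5.52, 7.43 and 6.55 TPM in EpiLCs, against 4.29, 4.24 and 4.20 TPM in ESCs (log2 fold change 0.51, adjusted p = 0.0054 by limma). The distant relative Hspa12a rose by 0.81 on the log2 scale. Hspa14, which forms the ribosome-associated complex with Dnajc2, had 178, 165 and 167 TPM in EpiLCs, against 129, 134 and 132 TPM in ESCs (log2 fold change 0.37, adjusted p = 2.4e-04 by limma). Dnajc2 itself had 140.2, 141 and 148 TPM in EpiLCs, against 113, 115 and 116 TPM in ESCs (log2 fold change 0.32, adjusted p = 4.1e-04 by limma). Both subunits were higher in every EpiLC library than in any ESC library. Hspa13 was not called. Hspa12b, under the filter, had 0.382, 0.613 and 0.348 TPM in EpiLCs and 0.0298, 0.0595 and 0.0503 TPM in ESCs, and Hspa1l stayed at or below 0.185 TPM.

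The chaperonin partners of the mitochondrial matrix changed unequally. Hspd1, which encodes HSP60, had 1276, 1271 and 1309 TPM in EpiLCs, against 778, 729 and 822 TPM in ESCs (log2 fold change 0.73 with an SE of 0.05, adjusted p = 9.5e-06 by limma). Hspe1, which encodes its lid HSP10, had 835, 830.2 and 825 TPM in EpiLCs, against 775, 741 and 787 TPM in ESCs. These groups did not overlap either, but the change was far smaller (log2 fold change 0.11 with an SE of 0.04, adjusted p = 0.030 by limma). The Hspe1 call was kept in 6 of 15 alternatives. Leaving out ESC replicate 1 or 2 or any EpiLC library ended it, as did median-of-ratios scaling and quantile normalization, where the log2 fold change was 0.06 and 0.05 (adjusted p over the alternatives 0.027 to 0.37 by limma). The Hspe1 to Hspd1 ratio was 0.654, 0.653 and 0.630 in EpiLCs, against 0.996, 1.02 and 0.957 in ESCs, for the pair that shares the Hspe1 promoter printed above (exact permutation p = 0.1, adjusted 0.12). Among the excluded pseudogene rows, 2 had a mean of at least 1 TPM, of which Hspd1-ps3 averaged 7.78 TPM in EpiLCs and 5.50 TPM in ESCs. How reads were divided between such copies and their parents is a step not given in the sources used here.

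**Figure D4:**
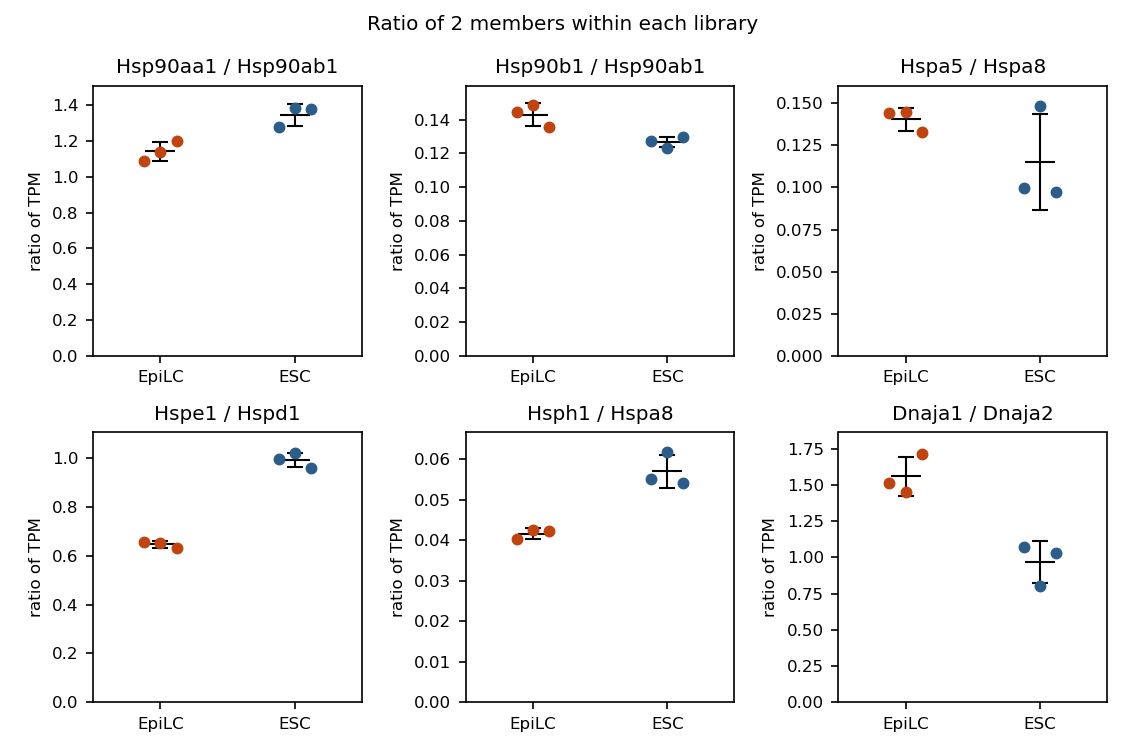
Ratio of the TPM of 2 members within each library (vertical axes, from 0), with 1 point per library, a line for the mean and bars for the SD (n = 3 each). Hspe1 over Hspd1 averaged 0.646 in EpiLCs and 0.990 in ESCs, Dnaja1 over Dnaja2 averaged 1.56 in EpiLCs and 0.970 in ESCs, and the groups overlap for Hspa5 over Hspa8 only.

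Small heat shock proteins fell or were not called. Hspb8, which works with the cochaperone Bag3 in selective autophagy, had 16.2, 9.07 and 15.4 TPM in EpiLCs, against 84.1, 71.3 and 90.3 TPM in ESCs. On the log2(TPM + 1) scale this was the lowest log2 fold change of any tested member (log2 fold change -2.54 with an SE of 0.20, adjusted p = 1.8e-05 by limma). With a pseudocount of 0.1 those of Dnajc6 and Dnajb13 were lower than that of Hspb8. Hspb1, which encodes HSP27 and is the most abundant of this class, had 200.4, 129 and 166 TPM in EpiLCs, against 342, 286 and 324 TPM in ESCs. The groups were separate, with EpiLC replicate 2 lowest for both genes (log2 fold change -0.96 with an SE of 0.15, adjusted p = 6.7e-04 by limma). Hspb6, at 6.06 to 7.12 TPM in EpiLCs and 6.83 to 8.88 TPM in ESCs, was not called, but leaving out ESC replicate 3 brought it past the threshold (-0.32 on the log2 scale, adjusted p = 0.045 by limma). Hspb2 was at 2.20 to 2.46 TPM in EpiLCs and 1.76 to 2.78 TPM in ESCs. Hspb3, Hspb7 and Hspb9 were under the filter. Of these, Hspb7 was listed at 0.0149, 0 and 0 TPM in EpiLCs and at 0.335, 0.260 and 0.326 TPM in ESCs.

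Of the 3 tested class A DNAJ genes, whose proteins are built like bacterial DnaJ, 2 rose and 1 fell. The shares were 66.7% and 33.3%, against 36.1% and 30.9% of all genes. Dnaja1, a cytosolic partner of Hsc70, had 383, 388 and 410 TPM in EpiLCs, against 188, 157 and 200.4 TPM in ESCs (log2 fold change 1.12 with an SE of 0.09, adjusted p = 1.7e-05 by limma). The EpiLC libraries were about alike, and ESC replicate 2 was once more the lowest. Dnaja2, its cytosolic paralog, had 253, 268 and 240 TPM in EpiLCs, against 175, 196 and 194 TPM in ESCs (log2 fold change 0.43 with an SE of 0.06, adjusted p = 4.9e-04 by limma). The Dnaja1 to Dnaja2 ratio was 1.51, 1.45 and 1.71 in EpiLCs, against 1.07, 0.804 and 1.03 in ESCs (exact permutation p = 0.1, adjusted 0.12). Dnaja3, the mitochondrial class A protein that serves mortalin, fell slightly, with 59.8, 59.3 and 63.6 TPM in EpiLCs, against 70.04, 72.4 and 67.6 TPM in ESCs (log2 fold change -0.20, adjusted p = 0.012 by limma). Dnaja4 stayed under 1 TPM in every library.

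Class B genes moved both ways, with 3 of 10 tested higher, 2 lower and 5 not called. Dnajb5 had 14.3, 15.4 and 13.5 TPM in EpiLCs, against 7.58, 6.86 and 6.29 TPM in ESCs (log2 fold change 0.96 with an SE of 0.10, adjusted p = 6.1e-05 by limma). Dnajb1, the heat-inducible HSP40, had 30.7, 34.2 and 36.04 TPM in EpiLCs, against 23.1, 25.8 and 27.5 TPM in ESCs (log2 fold change 0.39, adjusted p = 0.0053 by limma). Dnajb12, an ER membrane protein of ER-associated degradation, was higher by 0.25 on the log2 scale, and this call did not hold when ESC replicate 3 or EpiLC replicate 1 or 2 was left out. The steepest fall of this class was in Dnajb13, known from sperm flagella and motile cilia. It had 2.05, 1.09 and 2.11 TPM in EpiLCs, against 11.5, 11.3 and 11.0 TPM in ESCs (log2 fold change -2.18 with an SE of 0.16, adjusted p = 1.4e-05 by limma). Dnajb6, a suppressor of polyglutamine aggregation and the most abundant class B member in both states, had 132, 117 and 128 TPM in EpiLCs, against 163, 152 and 164 TPM in ESCs (log2 fold change -0.34, adjusted p = 0.0013 by limma). Dnajb3 was under the filter, at 1.04 to 1.15 TPM in EpiLCs and 0.257 to 0.335 TPM in ESCs. Dnajb2, Dnajb4, Dnajb9, Dnajb11 and Dnajb14 were not called. The testis genes Dnajb7 and Dnajb8 were at or near 0, with at most 0.0475 TPM.

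Class C proteins share only the J domain and are tied to many processes. Clathrin uncoating was represented by Dnajc6 (auxilin), which had 1.50, 1.46 and 1.79 TPM in EpiLCs, against 12.7, 12.9 and 12.1 TPM in ESCs. Every EpiLC library was far below every ESC library (log2 fold change -2.40 with an SE of 0.10, adjusted p = 9.3e-07 by limma). Its ubiquitous relative Gak, which the symbol rule does not include, fell less, to 35.3 ± 0.739 TPM in EpiLCs, against 51.2 ± 1.88 TPM in ESCs (SD, n = 3 each, log2 fold change -0.52, adjusted p = 8.7e-05 by limma). Dnajc4 had 7.71, 9.03 and 6.79 TPM in EpiLCs, against 19.2, 16.1 and 17.9 TPM in ESCs (log2 fold change -1.09 with an SE of 0.12, adjusted p = 9.2e-05 by limma). Dnajc5g had 2.34, 0.929 and 2.62 TPM in EpiLCs, against 6.68, 3.08 and 6.17 TPM in ESCs. Replicate 2 was the lowest library of both groups for Dnajc5g (log2 fold change -1.09 with an SE of 0.31, adjusted p = 0.015 by limma). Leaving out ESC replicate 1 or 3 (adjusted p = 0.052 and 0.051 by limma) or dropping the filter (0.054) ended that call, and the adjusted p over the alternatives ranged between 3.4e-04 and 0.054.

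Other class C genes changed by less than 1 on the log2 scale. Dnajc12, a cochaperone of aromatic amino acid hydroxylases, fell by 0.84, Dnajc18 by 0.49 and Dnajc25 by 0.48. Dnajc7, a TPR protein that bridges HSP70 and HSP90, had 174, 168 and 169 TPM in EpiLCs, against 223, 225 and 209 TPM in ESCs (log2 fold change -0.36, adjusted p = 2.7e-04 by limma). Dnajc9, a histone chaperone, had 90.3, 97.5 and 88.2 TPM in EpiLCs, against 115, 116 and 114 TPM in ESCs (log2 fold change -0.32, adjusted p = 9.0e-04 by limma). Upward, Dnajc30, a mitochondrial protein, rose by 0.71, and the endosomal protein gene Dnajc13 by 0.37. Dnajc8, a splicing-associated protein and the most abundant class C member, had 312, 325 and 326 TPM in EpiLCs, against 237, 264 and 269.7 TPM in ESCs (log2 fold change 0.32, adjusted p = 0.0014 by limma). Dnajc5, which encodes the cysteine string protein of synaptic vesicles, rose by 0.34. Dnajc21, which acts in the making of the large ribosomal subunit, had 78.8, 81.6 and 78.8 TPM in EpiLCs and 77.8, 89.1 and 83.0 TPM in ESCs and was not called. Neither were Dnajc1, Dnajc11, Dnajc15, Dnajc16, Dnajc17, Dnajc19, Dnajc22 and Dnajc24, and Dnajc5b, under the filter, was above 0 in 1 ESC library only (0.0866 TPM). Dnajc14, Dnajc27 and Dnajc28 were called higher by 0.21, 0.39 and 0.40, and each call was lost in at least 5 alternatives, which include leaving out ESC replicate 1 or EpiLC replicate 1 for all 3 genes. Leaving out ESC replicate 2 ended the calls of Dnajc14 and Dnajc28, ESC replicate 3 those of Dnajc14 and Dnajc27, EpiLC replicate 2 those of Dnajc27 and Dnajc28, and EpiLC replicate 3 that of Dnajc14.

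Grouped by compartment, ER members did not rise together. Of 10, 4 rose (Hspa5, Hsp90b1, Dnajb12 and Dnajc10), 1 fell (Dnajc3) and 5 were not called, with a median of 0.10. Over all tested genes 36.1% were higher and 30.9% lower. The share of ER members that rose was thus near the background, and the share that fell was below it. Under the alternatives 2 to 4 rose and 1 or 2 fell, and the calls of Dnajb12 and Dnajc10 were lost in some of them. The ER J proteins stood apart from their partner BiP in size. Dnajb11 (ERdj3) had 54.5, 49.1 and 55.1 TPM in EpiLCs and 53.2, 57.3 and 57.2 TPM in ESCs and was not called (limma adjusted p = 0.304). Dnajb9 (ERdj4), a J protein induced by ER stress, had 8.82, 9.50 and 11.3 TPM in EpiLCs and 9.01, 9.31 and 12.3 TPM in ESCs and was not called (limma adjusted p = 0.832). Dnajc3, an ER cochaperone of BiP, had 15.6, 17.7 and 16.2 TPM in EpiLCs, against 20.3, 21.1 and 22.9 TPM in ESCs. Its fall (log2 fold change -0.36, adjusted p = 0.0047 by limma) was opposite to that of Hspa5 and Hsp90b1, the other promoters with an ER stress element. Dnajc10 (ERdj5), a disulfide reductase, rose by 0.23, a call lost in 5 of 15 alternatives (median-of-ratios scaling, and leaving out ESC replicate 1 or 3 or EpiLC replicate 2 or 3).

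Of 8 members on the chosen mitochondrial list, 3 rose (Hspd1, Hspe1 and Dnajc30), 2 fell (Hspa9 and Dnaja3) and 3 were not called. Among the last was Dnajc19, the J protein of the import motor, at 130.4, 131 and 133 TPM in EpiLCs and 132, 137 and 131 TPM in ESCs. The shares of this list, 37.5% higher and 25.0% lower, were near the 36.1% and 30.9% of all genes. Like the ER list, it may not hold every member of its compartment. A list of 11 members that heat can raise through HSF1 held Hspa1a, Hspa1b, Hspa4l, Hspa8, Hsph1, Hsp90aa1, Hspd1, Hspe1, Hspb1, Dnaja1 and Dnajb1. It includes Hspa8, which is expressed without stress as well. The list was chosen with earlier results of these data known, so its shares depend on that choice, and it may not be complete. Hspb8 and Dnajb6, which fell, and Dnajb4, which was not called, are not on it. Of its 11 members 8 rose (72.7%, against 36.1% of all genes), 1 fell (Hspb1, 9.09%, against 30.9% of all genes) and 2 were not called (Hsp90aa1 and Hspa1a), with a median of 0.57. Under the alternatives 7 or 8 rose, and the rise of Hspe1 held in 6 of 15 alternatives. Of the 14 members with a paired heat shock unit in a promoter window, 7 rose, 2 fell, 3 were not called and 2 were not tested, beside 36.1% higher and 30.9% lower over all tested genes. Among these rises, those of Hspe1, Dnajc10 and Dnajc27 were lost in some alternatives. The 14 are not all separate promoters, as Hspd1 and Hspe1 share a stretch and the Hspa1a and Hspa1b windows are nearly identical. Hspb1 and Hspa1b, printed above, both hold such pairs and moved in opposite directions. Dnajb6, whose promoter holds the triple, fell, and Hspd1 and Hspe1, which share a stretch with overlapping triples, rose.

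ESC replicate 2 lay low for some members of the heat list. On the log2(TPM + 1) scale it was below the mean of the other ESC libraries by 0.67 for Hspa8, by 0.49 for Hsph1 and by just under 0.3 for Dnaja1. Of the 11 members of the heat list, 2 (Hspa8 and Hsph1) were lower by at least 0.3 in this library. Over all 62 tested members there were 4 (6.45%, with Dnajc5g and Dnajc1), against 8.98% of all tested genes. ESC replicate 2 was the lowest ESC library for 6 of 11 on the heat list (54.5%), against 35.9% of all tested genes. Over all 62 tested members it was the lowest for 22 (35.5%), near that share. Without it, 24 members rose and 14 fell.

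The partners of these chaperones were taken from 8 lists with 77 genes, of which 76 were tested. Among them 29 rose and 24 fell (38.2% and 31.6%), with a median of 0.03, close to the shares over all genes. The cytosolic chaperonin TRiC, which folds actin and tubulin, rose for 7 of 8 subunits (87.5%, against 36.1% of all genes). Tcp1 was at 983 ± 30.5 TPM in EpiLCs and 669 ± 29.6 TPM in ESCs (log2 fold change 0.56), and Cct2 was higher by 0.48. Cct4 fell by 0.18, a call lost without EpiLC replicate 1 or 3. Under the alternatives 5 to 7 subunits were called higher. Prefoldin, which delivers clients to TRiC, split into 3 higher (50.0%) and 2 lower (33.3%), against 36.1% and 30.9% of all genes. Pfdn4 rose by 0.39 and Pfdn2 by 0.37, the most of the list, with Pfdn1 at -0.36 and Pfdn5 at -0.32.

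Of 13 nucleotide exchange factors and related HSP70 regulators 8 were called lower (61.5%, against 30.9% of all genes) and 4 higher (30.8%, against 36.1% of all genes), with 6 to 8 lower and 3 or 4 higher under the alternatives. Bag2, an inhibitor of the ubiquitin ligase CHIP, rose to 7.41 ± 0.516 TPM in EpiLCs, against 2.50 ± 0.437 TPM in ESCs (SD, n = 3 each, log2 fold change 1.27, adjusted p = 6.0e-05 by limma), and Bag4 rose by 0.41. Sil1, an exchange factor of BiP, fell by 0.42, and Grpel2, a mitochondrial exchange factor, by 0.35. Others of the list differed, with Grpel1 higher by 0.36 (limma adjusted p = 0.0014) and Hyou1 not called (limma adjusted p = 0.281). Bag3, the partner of Hspb8, fell by 0.24, a call lost without EpiLC replicate 2 or any single ESC library. Of 18 HSP90 relatives and cochaperones 8 rose and 4 fell (44.4% and 22.2%, against 36.1% and 30.9% of all genes). The cyclophilin Ppid was higher by 0.64 and Nudc by 0.48, and Ttc4 and the immunophilin Fkbp5 were lower by 0.49 and 0.47. The mitochondrial HSP90 gene Trap1 was at 164 ± 1.87 TPM in EpiLCs and 168 ± 2.69 TPM in ESCs and was not called.

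The heat shock factor list gave 2 higher genes and 1 lower of 4 tested (50.0% and 25.0%, against 36.1% and 30.9% of all genes). Hsf5 rose by 0.53 at a low level, 2.17 ± 0.119 TPM in EpiLCs and 1.20 ± 0.0642 TPM in ESCs, and was not tested with the filter at 5 TPM. Hsf2 rose by 0.50 (45.6 ± 0.763 TPM in EpiLCs, 31.9 ± 1.45 TPM in ESCs). The lower gene was Hsbp1, which encodes a binding protein that restrains HSF1 (101 ± 4.09 TPM in EpiLCs, 164 ± 9.82 TPM in ESCs, log2 fold change -0.69, adjusted p = 3.0e-05 by limma). Hsf1 itself was at 27.3 ± 0.859 TPM in EpiLCs and 24.9 ± 0.865 TPM in ESCs and was not called (limma adjusted p = 0.102). Of 14 ER folding enzymes and lectins 3 rose and 4 fell (21.4% and 28.6%, against 36.1% and 30.9% of all genes). Abundant members such as Calr, at 619 ± 42.7 TPM in EpiLCs and 643 ± 13.5 TPM in ESCs, were not called. Manf rose by 0.95 and Fkbp2 by 0.23, and Sdf2l1, an ER partner of Dnajb11, fell by 0.80 and the oxidase Ero1b by 0.42. Ero1b was at a low level, 1.95 ± 0.174 TPM in EpiLCs and 2.96 ± 0.338 TPM in ESCs. The Ero1b call and that of Sel1l were lost without ESC replicate 3. The 9 ER stress sensors and factors gave 2 higher (Xbp1 by 0.59, Edem1 by 0.45) and 2 lower (Atf6 at -0.62, Sel1l at -0.29). That is 22.2% each way, against 36.1% higher and 30.9% lower over all genes. Among 4 J-domain proteins under other symbols, Hscb, which hands iron-sulfur clusters on with mortalin, fell to 15.9 ± 1.99 TPM in EpiLCs, against 55.9 ± 3.76 TPM in ESCs (log2 fold change -1.76, adjusted p = 3.6e-06 by limma).

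**Figure D5:**
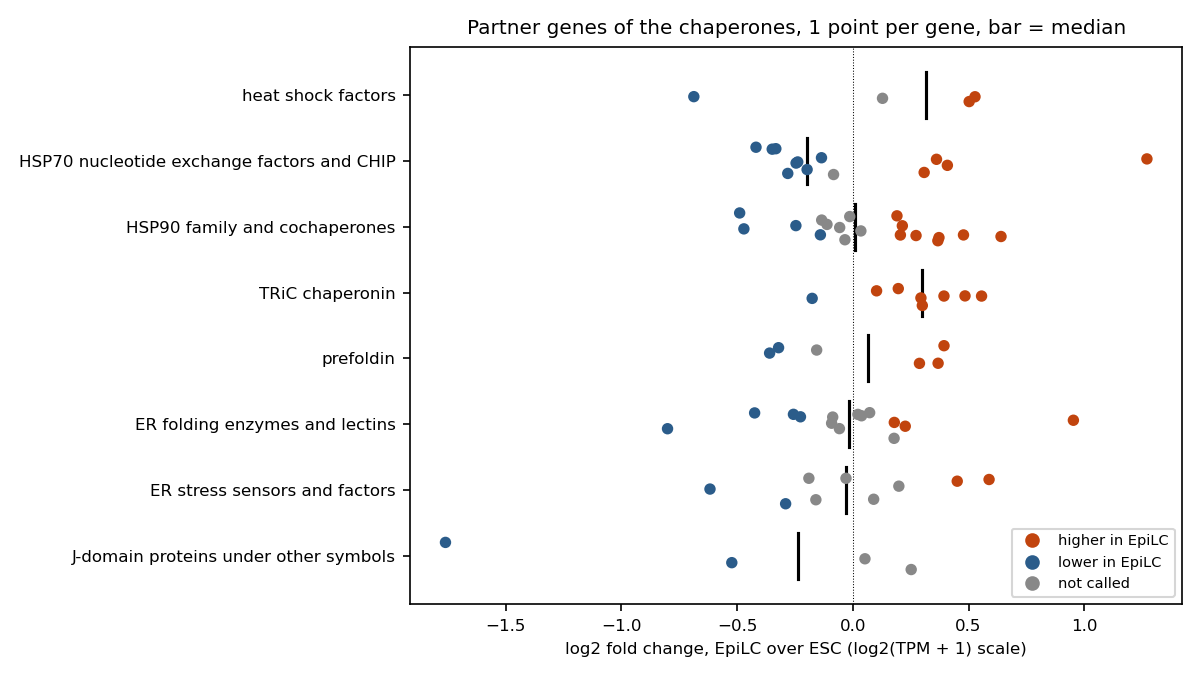
Log2 fold change (horizontal axis, EpiLC over ESC, log2(TPM + 1) scale) of the 76 tested partner genes in 8 lists, with 1 point per gene coloured by its call and a vertical bar at the list's median. TRiC has a median of 0.30 with 7 of 8 subunits higher, and the HSP70 regulators a median of -0.20.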

How the data were processed

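Poly(A) RNA libraries of 3 EpiLC and 3 ESC samples were analysed from 1 deposited table of TPM values per gene, with 1 column per library, each matched to a sample by cell type and replicate number. FastQC, Trim Galore, STAR, Salmon and mm39/GRCm39 are named per the submitters' processing notes. Their versions and roles, the annotation, and how reads of near-identical genes were divided are not given in the sources used here. TPM holds no counts, so no count model was used. Values were transformed as log2(TPM + 1), genes with a mean of at least 1 TPM were kept, and the EpiLC and ESC libraries were fitted in limma 3.58.1 under R 4.3.3 (variance trend, no block, two-sided, Benjamini-Hochberg over all tested genes). The code was tested on simulated data. Summed TPM per class was described without a test. The longest reading frames of GENCODE M21 transcripts were aligned with Biopython 1.88. Promoter windows came from RefSeq on GRCm38.p6.

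Counts and sums cover all members, but 1 member is not reported individually here. The members, gene lists, named genes and tests were chosen with earlier results of these data known. Values in every library are given for the 12 called members with the largest change, the most abundant member of each class and a set list of classical members, and further members were added where they complete a class. Partner genes were named as the largest called changes in each direction, and Hsf1, Bag3, Gak, Calr, Trap1, Grpel1, Hyou1 and the excluded row Hspd1-ps3 were added after their values were seen. Alternatives were smaller pseudocounts (0.1 and 0.5), dropping the filter or raising it to 5 TPM, scaling by median of ratios or by quantiles, a fit without variance trend, sample weights, a replicate block and leaving out each library. For ratios and summed TPM, the alternatives were chosen after seeing the data.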

Additional observations from a re-analysis of the deposited data

How the results depend on the processing

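Across 15 alternatives the number of members called higher stayed between 22 and 27 and of those called lower between 12 and 16, and 34 of 42 called members kept their call wherever they were tested. Partner counts stayed between 26 and 29 higher and 19 and 25 lower. The 8 calls that were lost somewhere were those of Hspa9, Hspe1, Dnajb12, Dnajc10, Dnajc14, Dnajc27, Dnajc28 and Dnajc5g. The cause was not tested. Direction turned only in genes that were not called, among the genes reported one by one. Hsp90aa1 had a log2 fold change of 0.055 with quantile normalization and ranged between -0.071 and 0.0035 when single libraries were left out, above 0 without ESC replicate 3 (0.0025) or EpiLC replicate 1 (0.0035). Hspb2 was at -0.024 with median-of-ratios scaling, -0.025 with quantile normalization and between -0.11 and 0.11 with a library left out (-0.024 without EpiLC replicate 2). Dnajc22 was at 0.061 with sample weights and between -0.11 and 0.13 with a library left out (0.052 without EpiLC replicate 2). The same ranges were -0.13 to 0.093 for Dnajb9 (0.035 without EpiLC replicate 1), -0.031 to 0.0024 for Dnajc19 and -0.12 to 0.25 for Hspa1a. Calls were gained for Hspb6 and Dnajc1 without ESC replicate 3, for Dnajc16 without a variance trend, and for Dnajb14 under both other scalings and without ESC replicate 3 or EpiLC replicate 1. With replicate number as a block, 26 members were higher and 15 lower. Same-numbered libraries deviated together with correlations of 0.10, 0.14 and 0.065 across genes, each highest with its own number. They are not all above 0.1 and the labels name nothing shared, so the numbers were not taken as pairs and this is a hint only. Median-of-ratios scaling moved the EpiLC over ESC fold of summed TPM to 1.01 for HSP90 (1.06 as deposited), 1.29 for the chaperonin (1.37), 1.52 for DNAJA (1.61), 0.866 for DNAJB (0.915) and 0.954 for DNAJC (1.01), where it crossed 1. The same scaling gave 1.56 for HSP70 and HSP110 (1.65), 0.434 for small heat shock proteins (0.458) and 1.14 for all members (1.20). The median of all genes was -0.0069 under this scaling, against 0.037 as deposited. The change of at least 1 on the log2 scale in Hspa8 was not reached without ESC replicate 2 (0.80), without EpiLC replicate 3 (0.98), with median-of-ratios scaling (0.97) or with sample weights (0.94). TPM gives no depth, so the precision of members near 1 TPM is unknown.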
